A study of Mus musculus with 6 samples.

Results

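A set of 7 transcription factor genes was followed, chosen by name from the MEF2, sine oculis (Six4) and SRF/MRTF families: Mef2a, Mef2c, Mef2d, Six4, Srf, Mkl1 and Mkl2. All 7 were listed among the 14515 genes of the deposited table, and all 7 passed the filter on low values that left 14077 genes to test. The RNA came from muscle stem cells of mice and made up 6 libraries, 2 each labelled wt (wild type), mdx and mdx/Ripk3mKO. The mdx mouse lacks functional dystrophin and models Duchenne muscular dystrophy. Ripk3 encodes a kinase that carries out necroptosis, a lytic cell death, and the labels leave mKO unexplained. By its label the mdx/Ripk3mKO group carries the mdx allele as well. Only if the labels give the genotype of the RNA does its comparison with mdx set the Ripk3 change on a shared mdx background.

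The sources describe the cells in different ways. According to the sample labels they were quiescent satellite cells that went from the sorter straight into preparation. According to the series text they were activated wild-type cells kept under a transwell insert, with wt, mdx or mdx/Ripk3mKO cells above them. In that case the label names the neighbouring cells and not the genotype of the RNA. Groups are therefore written as libraries labelled wt, mdx and mdx/Ripk3mKO. Whether libraries of 1 label stand for different animals or cultures is not said, so the p-values rest on a spread between libraries that could be technical.

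MEF2 proteins bind DNA as dimers and, together with the myogenic factors Myod1 and myogenin, switch on contractile and metabolic genes of muscle, while class IIa histone deacetylases hold them in check and p38 and calcium signalling release them. Six-family homeodomain proteins bind MEF3 sites with Eya coactivators and act early in myogenesis and in fast fibre genes. SRF binds CArG boxes with different partners: the myocardin-related factors MRTF-A (Mkl1) and MRTF-B (Mkl2), which monomeric actin holds back and filament assembly frees, or the ternary complex factors of the Elk family, which respond to growth factor signalling.

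Promoter windows of Srf and Six4 hold sites of the kind that their own families bind. They are shown here because the promoters of target genes below were searched for the same sites. The target lists themselves come from textbook knowledge and were not drawn from this search, yet that knowledge may itself rest on such sites. The shares of windows with a match are thus a description and no test of the lists. RefSeq windows of 250 bases before each start (GRCm38.p6) were searched on both strands for the CArG box, the MEF2 site and the MEF3 site TCAGGTTTC, and no matches of different motifs shared bases. Capitals mark the matches. The Srf window (chr17:46556163-46556412, minus strand) holds 2 CArG boxes, which begin 82 and 62 bases before the start. One of the 2 Six4 windows (chr12:73113246-73113495, minus strand) holds a MEF3 site in reverse, GAAACCTGA, 99 bases before the start. That match lies inside the span given for the gene (chr12:73099609-73113456, minus strand) and not before it. The other Six4 window held no match. Myog, the gene of myogenin and a Six-family target, is shown for comparison (chr1:134289754-134290003, plus strand), with its MEF3 site 84 bases before the start.
Srf: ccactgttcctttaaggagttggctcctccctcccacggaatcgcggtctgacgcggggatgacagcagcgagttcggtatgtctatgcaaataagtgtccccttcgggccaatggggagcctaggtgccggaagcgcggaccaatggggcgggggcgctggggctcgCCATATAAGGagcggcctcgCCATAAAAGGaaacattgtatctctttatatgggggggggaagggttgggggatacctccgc
Six4: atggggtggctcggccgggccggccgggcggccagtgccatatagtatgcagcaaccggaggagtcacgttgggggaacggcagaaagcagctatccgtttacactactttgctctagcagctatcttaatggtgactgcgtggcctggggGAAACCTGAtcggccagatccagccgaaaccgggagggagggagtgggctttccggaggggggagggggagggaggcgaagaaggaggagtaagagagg
Myog: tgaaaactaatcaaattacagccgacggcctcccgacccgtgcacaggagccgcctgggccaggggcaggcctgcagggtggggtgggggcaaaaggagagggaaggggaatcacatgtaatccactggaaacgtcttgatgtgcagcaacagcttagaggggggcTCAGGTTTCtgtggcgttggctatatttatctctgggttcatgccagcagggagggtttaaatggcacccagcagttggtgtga

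One of 3 Mkl2 windows held a MEF2 site 165 bases before the start, and the windows of Mef2a, Mef2c, Mef2d and Mkl1 held none of the 3 motifs. Of all 32851 windows of this length, 1.47% held a CArG box, 2.92% a MEF2 site and 0.387% a MEF3 site. A match describes the letters of a window only and does not show binding.

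Summed scaled counts per library ran from 20611974 to 21037153, and a gene's scaled count over its library total is given as CPM. Myog lay at 1300 to 1700 CPM and Myod1 at 904 to 1140 CPM in every library, and Pax7, the satellite cell factor, at 84.6 to 103 CPM. Markers of endothelial cells summed to 3.52 to 4.99 CPM (5 of 8 listed in the table), of macrophages to 2.14 to 3 CPM (3 of 9) and of fibroblasts to 206 to 267 CPM (5 of 8), and none of 6 lymphocyte markers was listed. Ripk3 had 45 and 32 scaled counts in the wt libraries, 23 and 36 in the mdx libraries, and 17 and 33 in the mdx/Ripk3mKO libraries, and Dmd, the dystrophin gene, had 324 and 432, 531 and 692, and 474 and 294. The groups overlapped for Ripk3, so its level gives no check of the labels. Dmd was higher in both mdx libraries than in the 4 others, by 0.69 ± 0.33 on the log2 scale against wt and with -0.70 ± 0.33 for mdx/Ripk3mKO against mdx, and neither difference passed (limma, adjusted p = 0.815 and 0.537). Library 1 labelled mdx/Ripk3mKO stood apart in sex-linked RNA, with 329 CPM of Xist against 7.93 to 31.7 in the others and 17.7 CPM of Ddx3y against 74.3 to 84.9.

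Per kilobase of exon, Mef2a was the most abundant member, at a median of 60.3 CPM per kb (lowest 57.5, highest 63.6), above 95.2% of the genes in the table. Srf followed at 47.9 (42.1 to 51.8) and Mef2d at 44.0 (42.3 to 46.8), and their ranges overlapped. Mef2c, at 18.5, had the widest range, from 11.2 to 24.3. Six4 at 9.63 (9.11 to 10.1) and Mkl2 at 9.48 (9.24 to 10.4) overlapped, and Mkl1 lay below both at 8.06 (6.89 to 8.56). The other family genes framed these levels. Six2 lay at 5.03 CPM per kb and Six5 at 0.677, while myocardin (Myocd), the cardiac and smooth muscle partner of SRF, lay at 0.127.

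**Figure D1:**
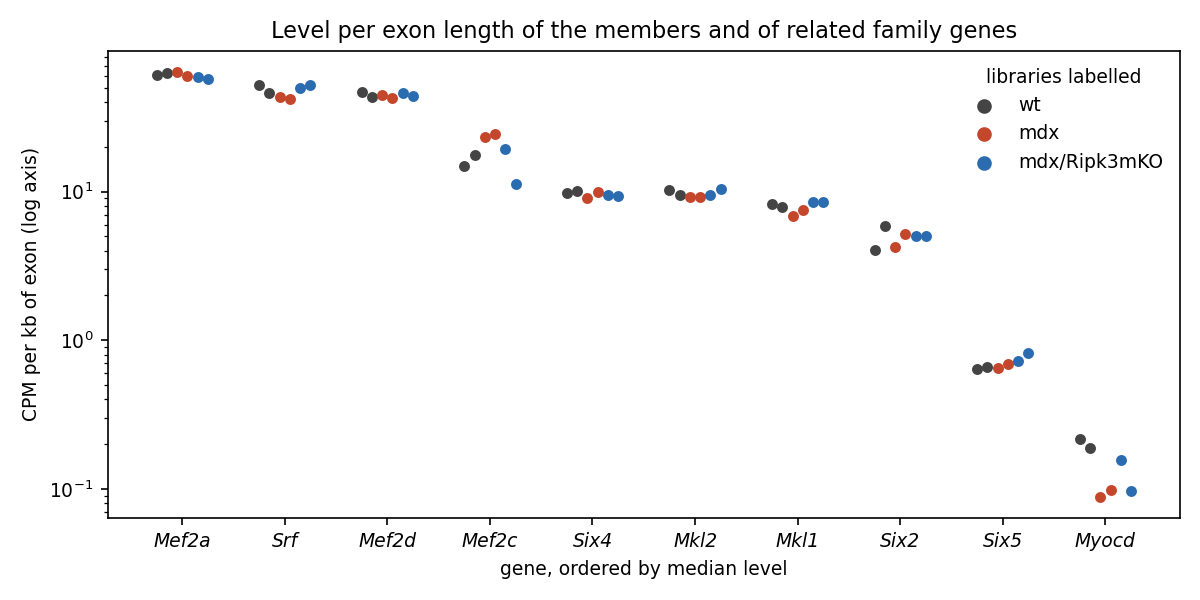
Level of each gene in CPM per kilobase of exon (log axis), 1 point per library, coloured by label. Mef2a lies highest at 57.5 to 63.6, Mef2c spans 11.2 to 24.3, and Myocd stays near the bottom at a median of 0.127.

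Within families, shares were steady across libraries except for Mef2c. Mef2a made up 47.5% to 51.2% of the summed Mef2a, Mef2c and Mef2d level per kb and Mef2d 33.4% to 38.8%. Mef2c held 12.2% and 14.2% of it in the wt libraries, 17.7% and 19.2% in the mdx libraries, and 15.6% and 10.0% in the mdx/Ripk3mKO libraries. It was above both other groups in the 2 mdx libraries, and the mdx/Ripk3mKO libraries lay on either side of the wt libraries. Mkl2 held 52.6% to 57.3% of the summed Mkl1 and Mkl2 level.

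No member passed an adjusted p of 0.05 (limma, 1 fit over the 6 libraries, Benjamini-Hochberg over 14077 genes) in any comparison. For mdx against wt the threshold was passed by 0.00710% of all genes, for mdx/Ripk3mKO against mdx by 0.206%, for mdx/Ripk3mKO against wt by 0% and in the F-test over the 3 genotypes by 0.0781%. At an unadjusted p under 0.05, Srf and Mkl1 were found in the first and the second comparison (2 of 7 each, against 6.46% and 11.6% of all genes) and no member in the third (3.32% of all genes). Groups without overlap between their libraries were seen for 4 of 7 members in mdx against wt (35.9% of all genes). There Mef2c was higher (17.6% of all genes) and Srf, Mkl1 and Mkl2 were lower (18.3%). In mdx/Ripk3mKO against mdx it was again 4 of 7 (41.3%), with Srf, Mkl1 and Mkl2 higher (21.0%) and Mef2c lower (20.3%). In mdx/Ripk3mKO against wt it was 3 of 7 (29.4%), with Mkl1 higher (14.4%) and Mef2a and Six4 lower (15.1%). The first comparison and the second share the mdx libraries, so a member that stands out in mdx shows opposite signs in them.

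**Figure D2:**
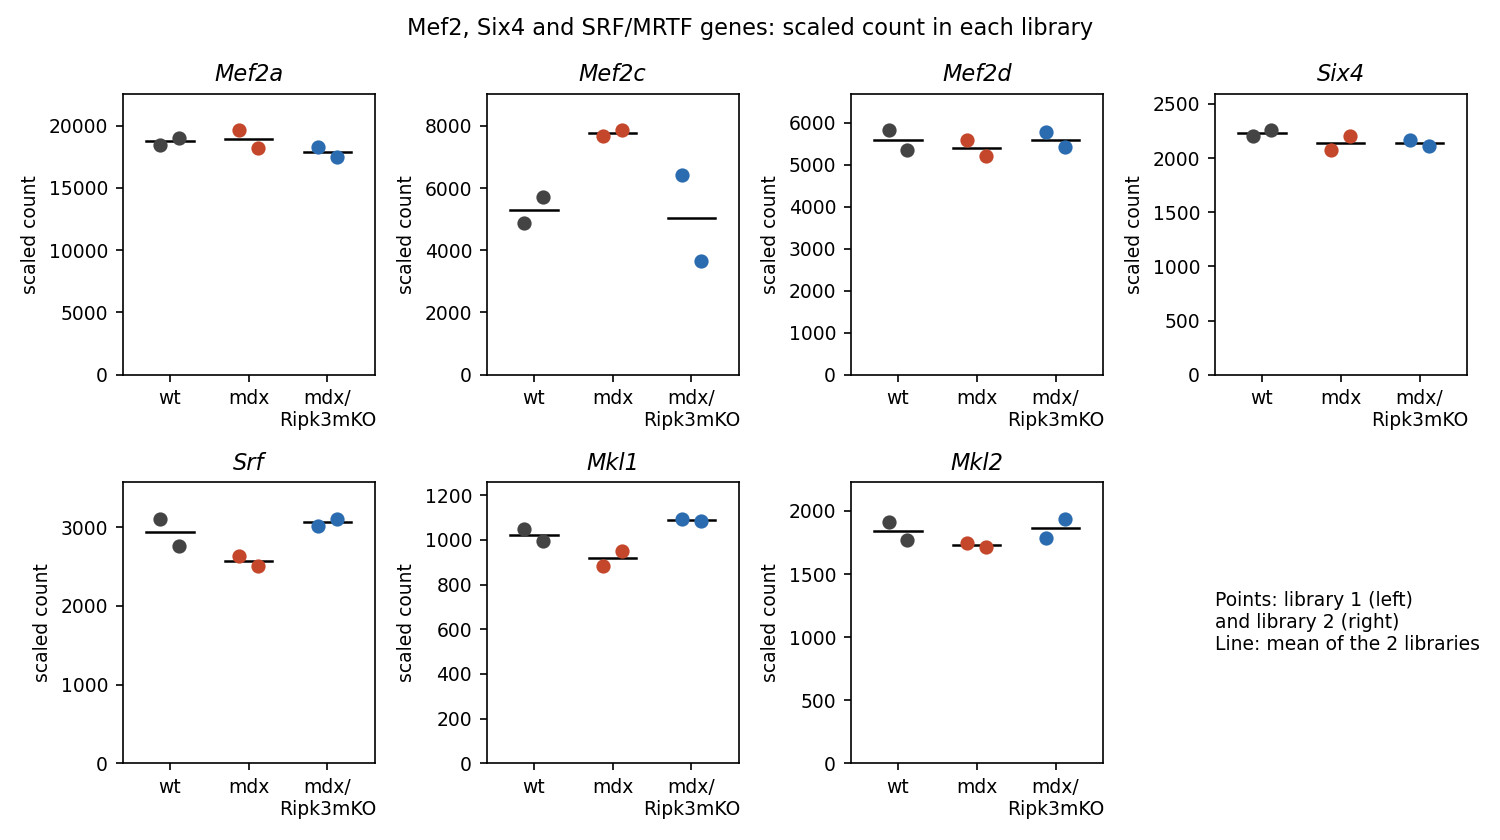
Scaled count of each member in each library, with library 1 left and library 2 right in each group and a line at the mean of the 2. Mef2c is at 7679 and 7865 in mdx against 3660 to 6410 elsewhere, and Srf and Mkl1 have their lowest points in mdx.

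Mef2a and Mef2d, the MEF2 genes with the highest levels, showed differences within the spread between libraries. Mef2a (ENSMUSG00000030557, mm10 chr7:67231163-67372858, minus strand) had 18441 and 19022 scaled counts in the wt libraries, 19638 and 18182 in the mdx libraries, and 18267 and 17514 in the mdx/Ripk3mKO libraries. Its groups overlapped except that both mdx/Ripk3mKO values lay below both wt values, by -0.07 ± 0.05 (SE, n = 2 and 2) on the log2(scaled count + 1) scale (limma, adjusted p = 1). Against wt the mdx libraries differed by 0.01 ± 0.05 (95% interval -0.10 to 0.12), and mdx/Ripk3mKO differed from mdx by -0.08 ± 0.05 (-0.19 to 0.03). Mef2d (ENSMUSG00000001419, chr3:88142372-88172086, plus strand) had 5819 and 5336 scaled counts in the wt libraries, 5594 and 5212 in the mdx libraries, and 5778 and 5412 in the mdx/Ripk3mKO libraries. All groups overlapped. Its log2 differences were -0.05 ± 0.06 for mdx against wt, 0.05 ± 0.06 for mdx/Ripk3mKO against mdx, and 0.0051 ± 0.06 for mdx/Ripk3mKO against wt, and the 95% intervals lay between -0.17 and 0.18.

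Mef2c, the MEF2 gene that is most closely tied to muscle differentiation and sarcomere genes, varied most among the members. Its scaled counts (ENSMUSG00000005583, chr13:83504034-83667080, plus strand) were 4863 and 5700 in the wt libraries, 7679 and 7865 in the mdx libraries, and 6410 and 3660 in the mdx/Ripk3mKO libraries. The mdx libraries lay above all 4 others, and the mdx/Ripk3mKO libraries were the highest and the lowest of those 4. Mef2c was 1.48-fold higher in mdx than in wt, a log2 difference of 0.56 ± 0.33 (95% interval -0.46 to 1.58, limma, adjusted p = 0.847), and 0.623-fold its mdx level in mdx/Ripk3mKO, a difference of -0.68 ± 0.33 (-1.70 to 0.34, adjusted p = 0.565). Against wt, mdx/Ripk3mKO differed by -0.12 ± 0.33 (-1.14 to 0.90).

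The call on Mef2c depended on the mdx/Ripk3mKO libraries. Between them the log2 difference, library 1 minus library 2, was 0.81 for Mef2c and -0.12 to 0.09 for the other 6 members. The same libraries also differed in sex-linked RNA, with 329 and 22.7 CPM of Xist and 17.7 and 76.6 CPM of Ddx3y. Whether the differences in Mef2c and in sex-linked RNA are related was not tested. When the fit held only the wt and mdx libraries, Mef2c was 0.56 ± 0.07 higher in mdx and passed (limma, adjusted p = 0.00184), as did 0.742% of all genes. With either mdx/Ripk3mKO library left out, the difference between mdx and wt was again 0.56. Those fits draw their spread from the wt and mdx libraries only, so they repeat the fit before and add no further evidence. Over all libraries left out in turn, the difference ran from 0.45 to 0.68. Without library 1, Mef2c was 1.09 lower on the log2 scale in the remaining mdx/Ripk3mKO library than in mdx (-1.09 ± 0.08, adjusted p = 2.62e-05, 1.99% of all genes called). Without library 2 that difference was -0.28 ± 0.08 (adjusted p = 0.273, 0.200% of all genes called). A lone library in these fits is taken to vary like the other groups. Against wt, mdx/Ripk3mKO was at -0.52 without library 1 and at 0.28 without library 2, with adjusted p-values of 0.21 and 0.382.

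Markers of mature fibres moved with Mef2c. The 7 of 8 myofibre markers listed in the table (Pvalb was not) summed to 6720 and 6370 CPM in the wt libraries, 8120 and 7530 in the mdx libraries, and 7730 and 5810 in the mdx/Ripk3mKO libraries. The 2 mdx sums straddle that of mdx/Ripk3mKO library 1, and library 2 of that label is lowest, below wt, as for Mef2c. Ckm and Acta1 are also on the list of MEF2 targets below. In bulk RNA a larger share of differentiated cells and more RNA per cell cannot be told apart, and their part in the values of Mef2c was not tested. Smooth muscle and pericyte markers (8 of 11 listed, without Myh11, Cnn1 and Kcnj8) summed to 3700 to 4440 CPM, and that list holds Acta2 and Des, which myoblasts also express.

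Six4, a Six-family factor of early myogenesis, showed small differences that did not pass. Its scaled counts (ENSMUSG00000034460, chr12:73099609-73113456, minus strand) were 2205 and 2258 in the wt libraries, 2078 and 2208 in the mdx libraries, and 2165 and 2115 in the mdx/Ripk3mKO libraries. The lowest and the second highest value were both in mdx, and the mdx/Ripk3mKO values lay just below the wt values. The log2 differences were -0.06 ± 0.06 for mdx against wt (95% interval -0.18 to 0.06), -0.0015 ± 0.06 for mdx/Ripk3mKO against mdx (-0.12 to 0.12) and -0.06 ± 0.06 for mdx/Ripk3mKO against wt (-0.18 to 0.06).

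Srf and its MRTF partners lay lowest in the mdx libraries, by small amounts that did not pass. Srf (ENSMUSG00000015605, chr17:46546839-46556162, minus strand) had 3109 and 2763 scaled counts in the wt libraries, 2632 and 2511 in the mdx libraries, and 3019 and 3107 in the mdx/Ripk3mKO libraries. Both mdx values were under all 4 others. The log2 difference was -0.19 ± 0.06 for mdx against wt (95% interval -0.32 to -0.055, limma, adjusted p = 0.586) and 0.25 ± 0.06 for mdx/Ripk3mKO against mdx (0.12 to 0.39, adjusted p = 0.132), a 1.19-fold difference. Against wt, mdx/Ripk3mKO differed by 0.06 ± 0.06.

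Mkl1, the gene of MRTF-A (ENSMUSG00000042292, chr15:81012281-81190757, minus strand), had 1048 and 995 scaled counts in the wt libraries, 885 and 950 in the mdx libraries, and 1095 and 1086 in the mdx/Ripk3mKO libraries. The 3 groups did not overlap, with mdx lowest and mdx/Ripk3mKO highest. Its log2 differences were -0.16 ± 0.07 for mdx against wt (95% interval -0.30 to -0.01, limma, adjusted p = 0.743), 0.25 ± 0.07 for mdx/Ripk3mKO against mdx (0.11 to 0.39, adjusted p = 0.161) and 0.09 ± 0.07 for mdx/Ripk3mKO against wt.

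Mkl2, the gene of MRTF-B (ENSMUSG00000009569, chr16:13256481-13417529, plus strand), had 1909 and 1768 scaled counts in the wt libraries, 1746 and 1714 in the mdx libraries, and 1789 and 1939 in the mdx/Ripk3mKO libraries. Here too both mdx values were under all 4 others, by a smaller distance. The log2 differences were -0.09 ± 0.06, 0.11 ± 0.06 and 0.02 ± 0.06 in the same order of comparisons (limma, adjusted p = 0.85, 0.544 and 1).

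GC content moved with all 3 comparisons. Over 14066 genes the Spearman correlation between a gene's GC content and its log2 difference was -0.175 for mdx against wt, 0.315 for mdx/Ripk3mKO against mdx and 0.217 for mdx/Ripk3mKO against wt. Srf is at 62.5% GC over its exons, Mkl1 at 58.7% and Mkl2 at 50.1%, against 42.7% for Mef2a and Mef2c. After a correction for GC content and exon length the second comparison gave 0.13 ± 0.05 for Srf (limma, adjusted p = 0.447), 0.17 ± 0.06 for Mkl1 and 0.11 ± 0.06 for Mkl2, and the first gave -0.13 ± 0.05, -0.10 ± 0.06 and -0.08 ± 0.06. Mef2c stayed at 0.53 ± 0.33 and -0.60 ± 0.33.

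**Figure D3:**
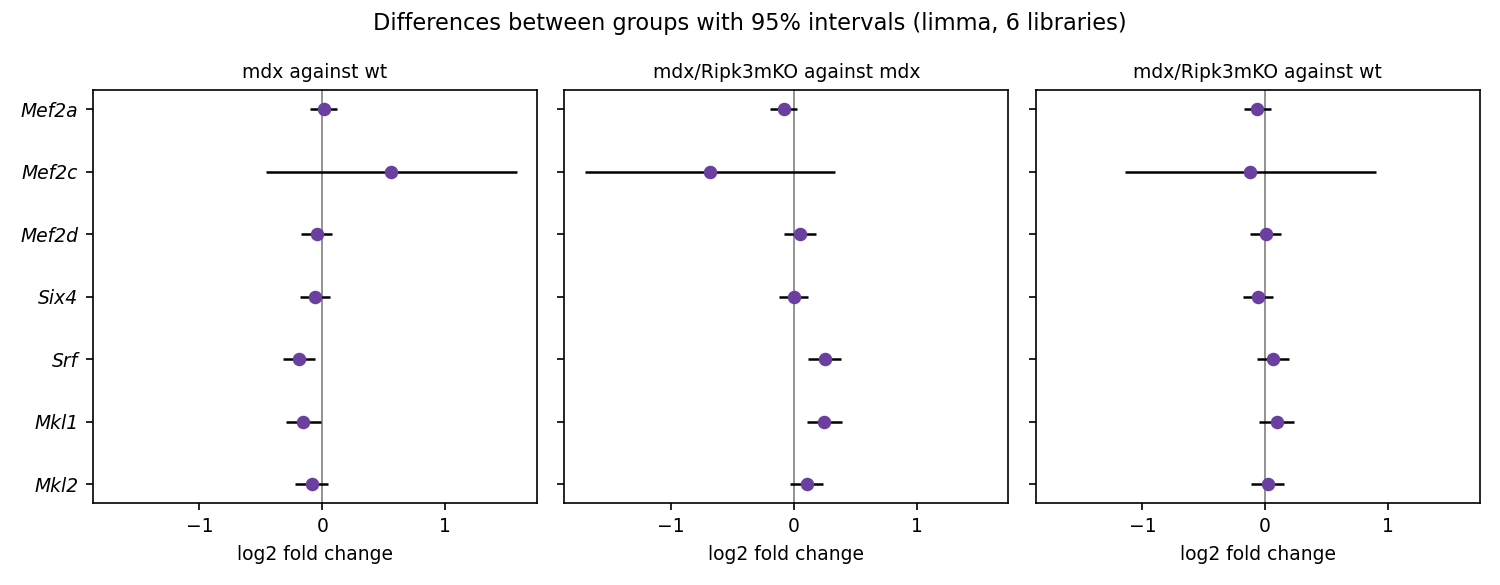
Log2 fold change of each member in the 3 comparisons, with 95% intervals from limma over 6 libraries. The Mef2c intervals are the widest, at -0.46 to 1.58 and -1.70 to 0.34 in the first comparisons, and the Srf and Mkl1 intervals lie off zero in both comparisons with mdx.

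Some members share exons with genes on the opposite strand. The sources used here do not give the strand use in counting. Mef2a overlaps Lysmd4 by 302 bases (mean scaled count 175), Mkl1 overlaps Sgsm3 by 10 bases (392) and Mef2d overlaps the antisense gene 1700113A16Rik by 531 bases (6.2). The means of these 3 members were 18511, 1010 and 5525. Mkl2 overlaps the antisense gene Gm15738 by 162 bases.

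The profiles of Mef2c and of the SRF genes over the 6 libraries ran against each other. As a description over 6 libraries that share their group structure, Pearson's r of the log2 values was taken between members. It was -0.94 between Mef2c and Mkl2, -0.82 between Mef2c and Srf and -0.72 between Mef2c and Mkl1. Among the SRF genes it was 0.89 between Srf and Mkl2, 0.87 between Srf and Mkl1 and 0.695 between Mkl1 and Mkl2. Among 9653 genes at a mean of at least 5 CPM, the profiles most like Mef2c were those of Myh1, a fast myosin heavy chain (r = 0.996), Prkaa2, a catalytic subunit of AMP-activated kinase (0.996), and Fyco1, an adaptor of autophagosome transport (0.994). The profiles most like Srf were those of Mrpl4, a mitochondrial ribosomal protein (0.998), Dmwd (0.996) and Csk, a kinase that restrains Src (0.996). Emc10, Emb and H2afx came closest to Mkl1 (0.992 each), and Atxn2l, Cdk2 and Lfng to Mkl2 (0.996, 0.994 and 0.991). With 6 points many genes reach such values: r was above 0.95 for 124 genes with Mef2c, 117 with Srf, 75 with Mkl2 and 73 with Mkl1.

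Profiles close to the other members were fewer. Zfp672, Dpp6 and Chrd came closest to Mef2a (0.995, 0.971 and 0.969), with 12 genes above 0.95. Tmem189, Klf5 and Gpr108 came closest to Mef2d (0.983, 0.982 and 0.981), with 32 above 0.95. Tcaf1, Tec and Tpbg came closest to Six4 (0.975, 0.962 and 0.956), with 4 above 0.95.

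Most of the MEF2 target genes, as textbooks list them, were higher in the mdx libraries than in wt, without a call. The list was chosen with earlier results of these data known, so its counts are a description and no test. Of 25 tested targets, 20 were higher in mdx than in wt, with a median log2 difference of 0.28 against -0.0022 over all 14077 genes. Among them 17 of 25 had mdx libraries that lay entirely above wt (17.6% of all genes) and 0 entirely below. The adjusted threshold was passed by 0 (limma, 2 of 25 at an unadjusted p under 0.05, against 6.46% of all genes). Slc2a4, the insulin-responsive glucose transporter, had 71 and 86 scaled counts in the wt libraries, 132 and 173 in the mdx libraries, and 68 and 61 in the mdx/Ripk3mKO libraries. Both mdx values were above all 4 others. Its differences were 0.94 ± 0.19 for mdx against wt (adjusted p = 0.254) and -1.22 ± 0.19 for mdx/Ripk3mKO against mdx (adjusted p = 0.0223), so that it fell in the second comparison.

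Muscle glycogen phosphorylase (Pygm) had 1814 and 1829 scaled counts in the wt libraries, 2325 and 2426 in the mdx libraries, and 2082 and 1561 in the mdx/Ripk3mKO libraries. It lay highest in mdx, and the mdx/Ripk3mKO libraries lay on either side of wt. The differences were 0.38 ± 0.13 for mdx against wt and -0.40 ± 0.13 for mdx/Ripk3mKO against mdx (limma, adjusted p = 0.699 and 0.333). Ppargc1a, a coactivator of mitochondrial genes, was at 0.43 ± 0.20 in the first (adjusted p = 0.805), and Rtl1, an imprinted gene, at -1.04 ± 0.35 in the second (adjusted p = 0.271).

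For mdx/Ripk3mKO against mdx, 19 of the 25 targets were lower, 11 had mdx/Ripk3mKO libraries entirely below mdx (20.3% of all genes) and the median was -0.37. Slc2a4 alone was called (0.121% of all genes were called lower and 0.0852% higher). That call was lost without wt library 1, wt library 2, mdx library 2 or mdx/Ripk3mKO library 2, in the fit of the 2 groups alone and without the variance trend, while a minimum mean of 100 left the gene out. Against wt, 16 of 25 were higher in mdx/Ripk3mKO, with a median of 0.02 and 0 called. Eno3, muscle enolase, was the 1 gene of the list at an unadjusted p under 0.05 there (0.12 ± 0.05, limma, adjusted p = 1), against 3.32% of all genes. It was followed by Myl2 (-1.01 ± 0.57, at 2 to 13 scaled counts) and Jun (0.11 ± 0.07).

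The MEF2 targets split the mdx/Ripk3mKO libraries as Mef2c did. Of the 25, 23 were higher in library 1 than in library 2, with a median log2 difference of 0.48 (over all genes 6748 of 14077 and 0). With only the wt and mdx libraries fitted, 9 of 25 rose in mdx (0.670% of all genes were called higher and 0.0721% lower): the sarcomere genes Myom1, Myom2, Myoz2 and Smpx, creatine kinase Ckm, myoglobin Mb, Pygm, Slc2a4 and the small heat shock protein gene Hspb7. Ckm was at 1742 and 1754 scaled counts in the wt libraries, 2631 and 2452 in the mdx libraries, and 2357 and 1420 in the mdx/Ripk3mKO libraries. In that fit it was 0.54 ± 0.06 higher in mdx (limma, adjusted p = 0.000671). For mdx/Ripk3mKO against mdx, 14 of 25 were called lower without library 1 (1.70% of all genes) with a median of -0.47, and 0 of 25 without library 2 (0.200% of all genes called), with a median of 0.0016. Against wt, 2 of 25 were called higher in mdx/Ripk3mKO without library 2 (0.0785% of all genes higher and 0.0642% lower), namely Hspb7 and Ckm (0.45 ± 0.07 and 0.43 ± 0.07, limma, adjusted p = 0.0162 and 0.0324). The median r of the targets with Mef2c over the 6 libraries was 0.84, with r above 0.9 for 10 of 25 (2.64% of all genes) and below 0 for 7 of 25.

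**Figure D4:**
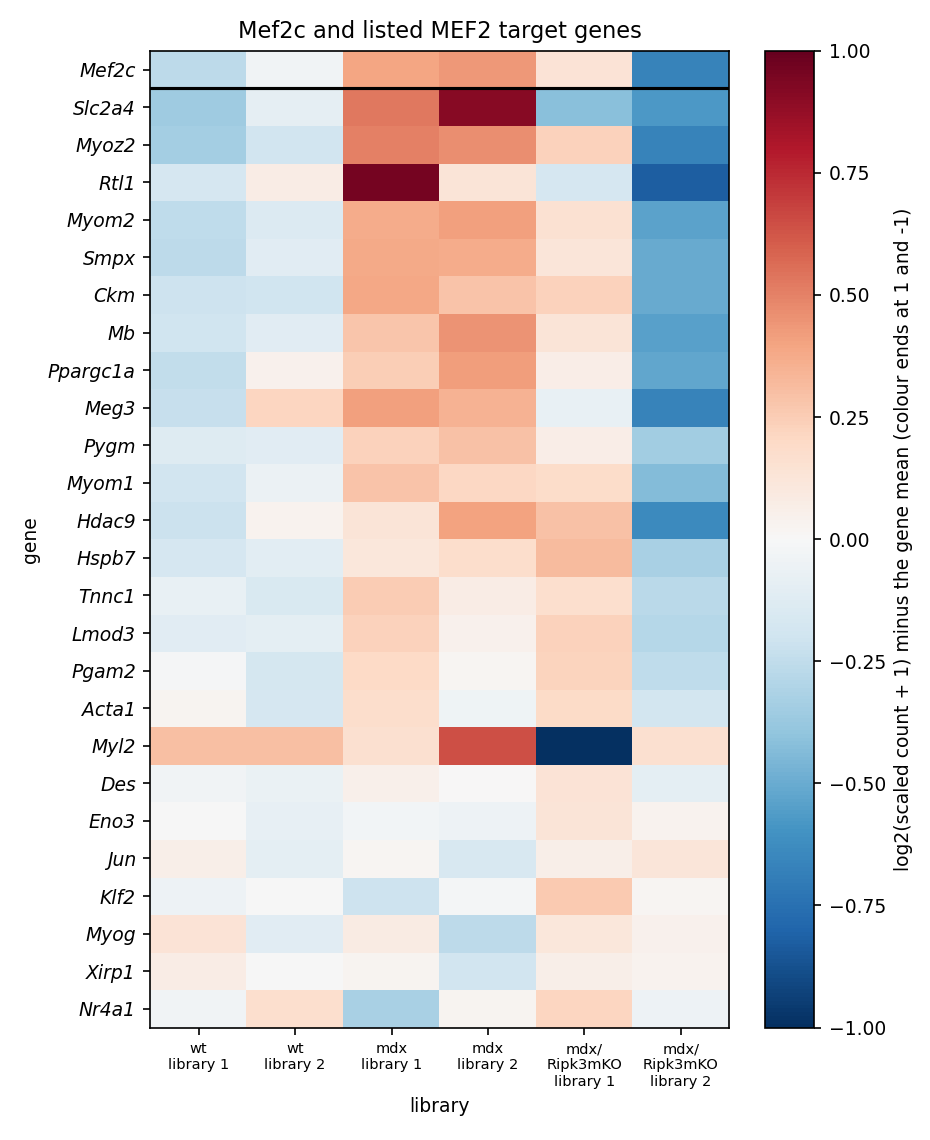
Mef2c (top) and 25 MEF2 target genes in the 6 libraries, coloured by log2(scaled count + 1) minus the gene's mean, with colour ending at 1 and -1. Most upper genes are red in both mdx libraries and blue in mdx/Ripk3mKO library 2, as Mef2c is, while Jun, Klf2, Myog, Xirp1 and Nr4a1 are not.

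Partners and regulators of MEF2 differed little. Of 16 tested, 7 were higher and 9 lower in mdx than in wt (median -0.04), 9 higher and 7 lower in the second comparison (0.02) and 8 higher and 8 lower in the third (-0.0016). None was called (limma, with 2, 3 and 0 of 16 at an unadjusted p under 0.05, against 6.46%, 11.6% and 3.32% of all genes). Ppp3ca, a catalytic subunit of calcineurin, had 1866 and 2059 scaled counts in the wt libraries, 2165 and 2183 in the mdx libraries, and 1968 and 1911 in the mdx/Ripk3mKO libraries, a difference of 0.15 ± 0.06 for mdx against wt (adjusted p = 0.709). Vgll2, a muscle cofactor of TEAD and MEF2 factors, had 1808 and 1735, 1720 and 1459, and 1906 and 1974, differences of -0.16 ± 0.07 and 0.29 ± 0.07 in the first and the second comparison (adjusted p = 0.757 and 0.134). Both sets of mdx libraries lay outside the others, high for Ppp3ca and low for Vgll2. Mapk7, the kinase ERK5, was at -0.16 ± 0.08 and 0.21 ± 0.08 (adjusted p = 0.782 and 0.333). Hdac9, a class IIa deacetylase and itself a MEF2 target, had 121 and 144, 154 and 186, and 173 and 90, again with mdx/Ripk3mKO library 2 lowest. Without library 1 of that label, which leaves 1 library, Hdac9 was at -0.90 against mdx.

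Eya coactivators of the Six-family factors gave no call in any comparison (limma). Eya4 ranged from 4233 to 4772 scaled counts over the 6 libraries and Eya1 from 479 to 630. Eya2, a coactivator with few counts, had 31 and 16 in the wt libraries, 9 and 9 in the mdx libraries, and 9 and 23 in the mdx/Ripk3mKO libraries. Its groups did not overlap between wt and mdx, with a difference of -1.22 ± 0.46 (limma, unadjusted p = 0.019, adjusted p = 0.666), and mdx/Ripk3mKO spanned both.

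Targets of Six-family factors gave no call over the 6 libraries either. The 14 entries tested stand for 13 genes, since Aldoa has a second entry at 7 to 16 scaled counts. Of these 14, 10 were higher in mdx than in wt (median 0.24), 5 higher in mdx/Ripk3mKO than in mdx (-0.15) and 11 higher in mdx/Ripk3mKO than in wt (0.06). None was called (limma, with 3, 2 and 0 of 14 at an unadjusted p under 0.05, against 6.46%, 11.6% and 3.32% of all genes). Myod1, the myogenic determination factor, had 23226 and 21120 scaled counts in the wt libraries, 19459 and 18636 in the mdx libraries, and 22696 and 23595 in the mdx/Ripk3mKO libraries. It was lowest in mdx, by -0.22 ± 0.05 against wt (adjusted p = 0.418) and with 0.28 ± 0.05 for mdx/Ripk3mKO against mdx (adjusted p = 0.0528). Atp2a1, the calcium pump of fast fibres, had 9495 and 9207, 11876 and 11362, and 10498 and 8390 scaled counts, the opposite order. Its differences were 0.31 ± 0.10 and -0.31 ± 0.10 (adjusted p = 0.65 and 0.301), and fast troponin I (Tnni2) was at 0.23 ± 0.08 in the first (adjusted p = 0.668). With only the wt and mdx libraries fitted, Myl1, Atp2a1 and the phosphofructokinase gene Pfkm rose in mdx (0.670% of all genes were called higher). For mdx/Ripk3mKO against mdx, 4 of 14 were higher without mdx/Ripk3mKO library 1 (median -0.19) and 5 of 14 without library 2 (-0.05). Without library 1, Myl1 was at -0.70, Atp2a1 at -0.47, Pfkm at -0.61 and embryonic myosin Myh3 at -0.48. The troponins Tnnc1 and Tnnt3 were at -0.43 and -0.37, and Myod1 at 0.31. Without library 2, Myl1 was at 0.38 against wt. Each of these fits leaves 1 mdx/Ripk3mKO library, which is taken to vary like the other groups. The genes named for them were picked because they passed in that fit. With all 6 libraries kept, Myod1 passed in the second comparison with a pseudocount of 5, with no filter on low values and after quantile normalization (limma, adjusted p = 0.0465, 0.042 and 0.0403). The median r of the targets with Six4 was -0.20, and none of the 14 had r above 0.9, as 0.512% of all genes did.

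SRF cofactors gave no call in any comparison over the 6 libraries. Of 9 tested, 3 were higher in mdx than in wt (median -0.05), 5 higher in mdx/Ripk3mKO than in mdx (0.12) and 5 higher in mdx/Ripk3mKO than in wt (0.04). At an unadjusted p under 0.05 there were 1, 2 and 0 of 9 (limma), against 6.46%, 11.6% and 3.32% of all genes. Myocd had 29 and 25 scaled counts in the wt libraries, 12 and 13 in the mdx libraries, and 21 and 13 in the mdx/Ripk3mKO libraries, a difference of -1.05 ± 0.35 for mdx against wt (adjusted p = 0.586). Elk4, a ternary complex factor, had 736 and 727, 800 and 801, and 648 and 716, and was at -0.23 ± 0.07 for mdx/Ripk3mKO against mdx (adjusted p = 0.241). Fhl2, a LIM protein that binds SRF, had 360 and 435, 364 and 310, and 411 and 439, and was at 0.34 ± 0.11 there (adjusted p = 0.253). Elk4 thus lay highest in mdx, and Myocd and Fhl2 had their lowest values there. The LIM protein gene Fhl1 was at -0.34 against mdx without mdx/Ripk3mKO library 1 and at 0.35 against wt without library 2. Each of these fits leaves 1 mdx/Ripk3mKO library, so the spread within that label is not in them.

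Genes that feed into MRTF through actin gave no call in any comparison over the 6 libraries. Of 19 tested, 6 were higher in mdx than in wt (median -0.05), 12 higher in mdx/Ripk3mKO than in mdx (0.03) and 15 higher in mdx/Ripk3mKO than in wt (0.03). At an unadjusted p under 0.05 there were 5, 7 and 0 of 19 (limma), against 6.46%, 11.6% and 3.32% of all genes. Pfn1, profilin, which loads actin monomers onto filaments, had 14659 and 14328 scaled counts in the wt libraries, 12949 and 12870 in the mdx libraries, and 15074 and 15244 in the mdx/Ripk3mKO libraries. The 3 groups did not overlap, as for Mkl1. Its differences were -0.17 ± 0.05 and 0.23 ± 0.05 (adjusted p = 0.461 and 0.0639). Cytoplasmic actin Actb was at -0.15 ± 0.05 and 0.16 ± 0.05 (adjusted p = 0.586 and 0.251), Actg1 at 0.27 ± 0.07 in the second (adjusted p = 0.155), and cofilin Cfl1, which severs filaments, at 0.17 ± 0.05 there (adjusted p = 0.192). Abra, a muscle protein that binds actin, lay highest in mdx, with 68 and 48, 106 and 88, and 86 and 47 scaled counts. The median r of the list with Mkl1 was 0.11, with r above 0.9 for 3 of 19 (2.15% of all genes) and below 0 for 9 of 19. Without mdx/Ripk3mKO library 1, which leaves 1 library of that label, Actg1 was at 0.34 and Pfn1 at 0.24 against mdx.

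Cytoskeletal targets of SRF and MRTF were close to 0 as a group. Of 29 tested, 12 were higher in mdx than in wt (median -0.02), 22 higher in mdx/Ripk3mKO than in mdx (0.07) and 25 higher in mdx/Ripk3mKO than in wt (0.06). Of these, 0 were called (limma, with 2, 4 and 1 of 29 at an unadjusted p under 0.05, against 6.46%, 11.6% and 3.32% of all genes). Single libraries set these counts: without mdx library 2 the first comparison had 22 of 29 higher (median 0.05) and the second 14 of 29 (-0.0034), and without wt library 2 the first had 9 of 29 (-0.06) and the third 15 of 29 (0.0019). Without mdx/Ripk3mKO library 1, Fhl1 was lower and Actg1 higher than in mdx, and without library 2 Fhl1 was higher than in wt. The values are given above, and each of these fits leaves 1 mdx/Ripk3mKO library. Mylk, myosin light chain kinase, had 201 and 190 scaled counts in the wt libraries, 288 and 240 in the mdx libraries, and 164 and 201 in the mdx/Ripk3mKO libraries. Unlike Actb and Actg1 it lay highest in mdx, at 0.43 ± 0.13 and -0.53 ± 0.13 (adjusted p = 0.586 and 0.143). Acta2, smooth muscle actin, varied more between libraries of a group than between groups, with 49293 and 38970, 51960 and 35974, and 48299 and 44728. Against wt, Actg2 in mdx/Ripk3mKO was at 0.50 ± 0.21 (adjusted p = 1), at 40 to 64 scaled counts.

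The CArG boxes of these targets are shown because they are the letters SRF binds, here with 10 bases on either side on the strand that carries the gene and the match in capitals (RefSeq, GRCm38.p6). Of 28 windows of the list 11 held a match (39.3%), as did 5 of 15 windows of the immediate early list (33.3%) and 1.47% of all windows. MEF2 sites were in 4 of 25 windows of the MEF2 targets (16.0%, against 2.92%), and the MEF3 site was in 1 of 17 windows of the Six-family targets (5.88%, against 0.387%). Fhl2 has 2 windows with a match each, at chr1:43196838-43196867 and chr1:43163973-43164002, both on the minus strand.
Fhl2, first window: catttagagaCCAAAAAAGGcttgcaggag
Fhl2, second window: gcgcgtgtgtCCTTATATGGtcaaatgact
Actg1 (chr11:120348566-120348595, minus): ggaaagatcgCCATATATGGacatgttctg
Acta1 (chr8:123894829-123894858, minus): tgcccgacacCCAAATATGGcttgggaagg
Actc1 (chr2:114052903-114052932, minus): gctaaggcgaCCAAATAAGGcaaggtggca
Myl9 (chr2:156775293-156775322, plus): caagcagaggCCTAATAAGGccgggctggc
Vcl (chr14:20929161-20929190, plus): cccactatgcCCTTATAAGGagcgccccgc
Cnn2 (chr10:79988534-79988563, plus): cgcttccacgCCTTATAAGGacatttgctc

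The other matches were in Lima1, Filip1l and Fhl1. The 10 tested targets with a CArG match had medians of -0.04, 0.05 and 0.07 in the 3 comparisons, and the 14 with a window but no match had -0.02, 0.05 and 0.02. The other 5 tested targets had no window to search. Srf itself, which holds 2 boxes, was at -0.19 and 0.25 in the first comparisons, next to -0.12 and 0.27 for Actg1 and -0.02 and 0.06 for Vcl.

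Immediate early genes, which SRF controls with Elk factors, were led by Egr3. Of 13 tested, Srf among them, 8 were higher in mdx than in wt (median 0.06), 5 higher in mdx/Ripk3mKO than in mdx (-0.08) and 5 higher in mdx/Ripk3mKO than in wt (-0.03). At an unadjusted p under 0.05 there were 4, 6 and 0 of 13 (limma), against 6.46%, 11.6% and 3.32% of all genes. Egr3, a zinc finger factor, had 48 and 80 scaled counts in the wt libraries, 156 and 148 in the mdx libraries, and 46 and 47 in the mdx/Ripk3mKO libraries. The mdx values were above all others. Egr3 was at 1.28 ± 0.22 for mdx against wt (limma, adjusted p = 0.19). In mdx/Ripk3mKO against mdx it fell by 1.69 on the log2 scale (-1.69 ± 0.22, limma, adjusted p = 0.0127). That was the 1 call of the list, while 0.121% of all genes were called lower there and 0.0852% higher. With only the wt and mdx libraries fitted, the first difference passed as well (1.28 ± 0.22, limma, adjusted p = 0.014). In that fit 0.670% of all genes were called higher. The call for mdx/Ripk3mKO against mdx was lost without mdx library 2 and without the variance trend, and a minimum mean of 100 left the gene out. Fos had 98 and 115, 153 and 136, and 89 and 101 scaled counts, at 0.44 ± 0.16 and -0.60 ± 0.16 (adjusted p = 0.65 and 0.159). Srf, a target of its own protein, thus lay lowest in the libraries in which Egr3 and Fos lay highest.

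**Figure D5:**
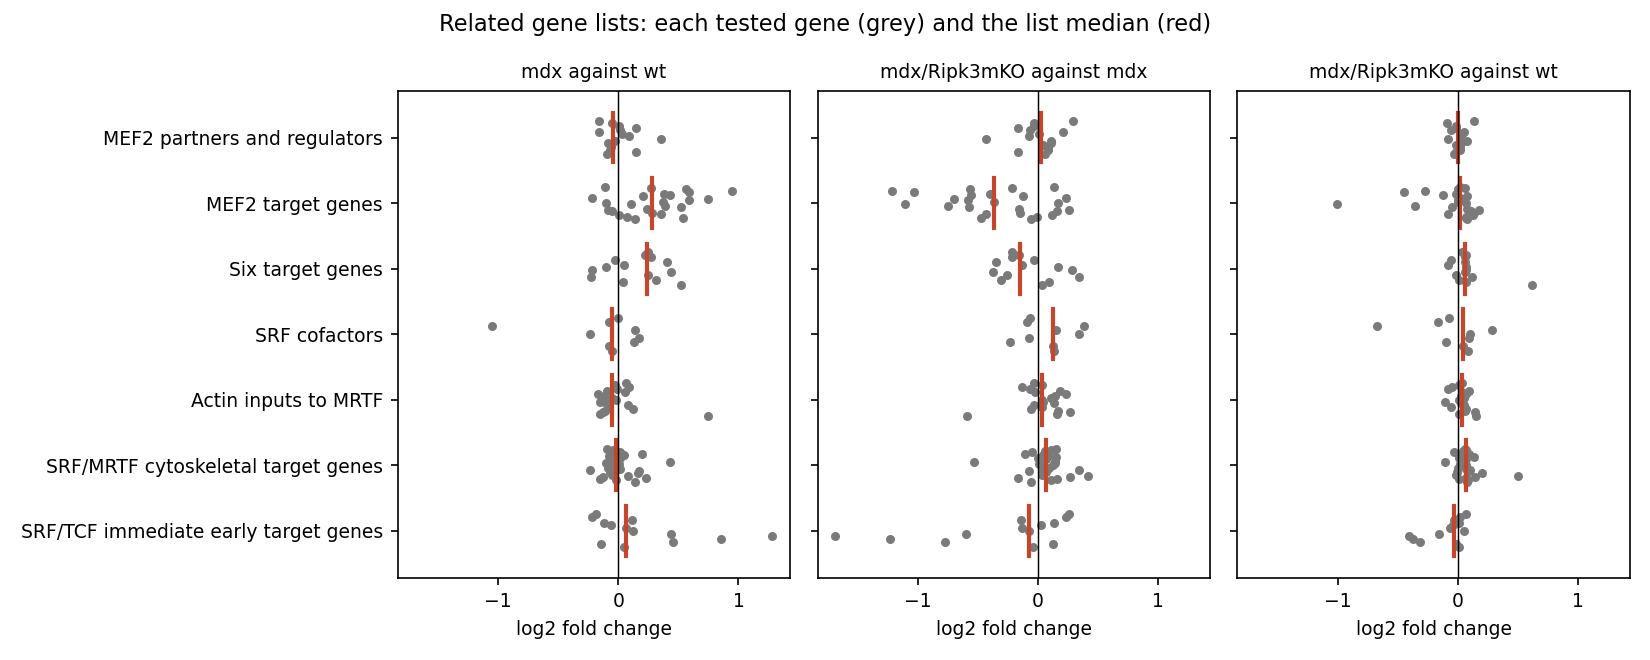
Log2 fold change of each tested gene (grey) and the median (red line) of 7 related gene lists in the 3 comparisons. The MEF2 targets sit at a median of 0.28 in the first panel and -0.37 in the second, and the SRF/MRTF cytoskeletal targets stay near 0 in all panels.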

How the data were processed

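The deposited table holds 1 value per gene and library. The values were treated as a score: the deposited numbers are whole, yet they act as read counts that the authors divided by size factors and rounded, so no count model was used. Per the submitters' processing notes, Trimmomatic 0.36, STAR 2.6.1d, featureCounts 1.6.3 of Subread, DESeq2 1.18.1 and the mm10 build were used, with no roles given. Both mdx columns carry one header, so mdx libraries 1 and 2 are names only, in column order. Scaling hides the sequencing depth, so no counting intervals are given.

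Genes that reached 10 in 2 or more libraries (14077, with 438 left out) were tested with limma 3.58.1 in R 4.3.3 (statmod 1.5.0) on log2(scaled count + 1), which understates changes of low genes. One fit over 6 libraries had genotype as its term, 3 residual degrees of freedom, a variance trend and robust moderation, and Benjamini-Hochberg adjustment at 0.05. It was tested on simulated data. Exon length and GC content came from GENCODE M21 (13 genes unmatched), and promoters from RefSeq. Named are all members, Ripk3 and Dmd, the 3 genes of smallest p and any called per list and comparison, and the 3 nearest profiles per member; not every one is described, and others are named where their levels serve as a check or were picked after their values were seen. Members and lists were chosen with earlier results of these data known. Alternatives covered the pseudocount, filters, moderation, scaling, GC content, groups fitted, a replicate block and each library left out. Some genes of these families are not reported here.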

Additional observations from a re-analysis of the deposited data

How the results depend on the processing

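Over the alternatives no member passed the threshold in mdx/Ripk3mKO against wt, and Mef2c was the 1 member to pass elsewhere. The number of members called was 1 for mdx against wt with only the 2 groups fitted, and 0 to 1 over the libraries left out for mdx against wt, mdx/Ripk3mKO against mdx and the F-test. Genes called for mdx against wt numbered 1, 103 with only the 2 groups fitted and 0 to 103 over the libraries left out. For mdx/Ripk3mKO against mdx they numbered 29, then 6 with a minimum mean of 100, 1 without trend or robust moderation, 2 with only the 2 groups fitted, 8 after the correction for GC content and length, and 1 to 278 over the libraries left out. For mdx/Ripk3mKO against wt they numbered 0, and 0 to 20 over the libraries left out (20 without mdx/Ripk3mKO library 2). The cause was not tested.

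Signs turned for small log2 differences. After the GC correction, mdx against wt gave -0.0175 for Mef2a, mdx/Ripk3mKO against mdx gave 0.00089 for Mef2a, -0.0149 for Mef2d and 0.0474 for Six4, and mdx/Ripk3mKO against wt gave -0.0173 for Mef2d. Mef2d in that last comparison was also at -0.0132 after quantile normalization and -0.0067 after scaling to the library total. Leaving out 1 library each gave -0.043 to 0.068 (Mef2a) and -0.108 to 0.017 (Mef2d) for mdx against wt, and -0.00051 to 0.102 (Mef2d) and -0.045 to 0.042 (Six4) for mdx/Ripk3mKO against mdx. For mdx/Ripk3mKO against wt it gave -0.057 to 0.068 (Mef2d), -0.022 to 0.149 (Srf), -0.038 to 0.078 (Mkl2) and -0.52 to 0.28 (Mef2c).

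Replicate numbers exist for the wt and mdx/Ripk3mKO libraries only, and nothing says that they pair samples: the correlation of same-numbered deviations was -0.0088. A fit of those 4 libraries with the replicate number as a block called 0 genes and 0 members, as without it. No paired analysis was possible for comparisons with mdx because its columns carry no usable number. With 2 libraries a group, the intervals printed beside the log2 differences set the precision, and they are widest for Mef2c.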
